A study of Mus musculus with 11 samples.

Results

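Induced pluripotent stem cells (iPSC) grown on feeder cells were compared with the feeder cells alone, over 3 arrays titled iPSC cultured on feeder cells and 2 arrays titled feeder cells, of 11 samples in the series. The members were chosen by these titles. The feeder cells were C57BL/6 mouse embryonic fibroblasts expressing LIF (leukemia inhibitory factor), named MSTO in the labels, and the iPSC were of the same strain. The iPSC were grown on mitomycin C-treated SNL76/7 cells and lifted off the layer mechanically before RNA extraction. The labels do not say how MSTO and SNL76/7 cells relate, whether the cells on the feeder arrays had been treated with mitomycin C, or which factors reprogrammed the iPSC. Another group, 3 arrays of feeder-free iPSC grown with added LIF in medium with serum, gave the level of each gene in iPSC without feeder cells. Its deposited columns, the first 2 of them identical at 100% of probes, were read from their values as mixtures with feeder signal, so every feeder-free level here is a recovered one and rests on that reading. The replicates are numbered but not said to be separate cultures, so p-values measure the spread between these samples, which may be technical.

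Feeder layers are growth-arrested fibroblasts that secrete LIF and other factors and lay down extracellular matrix. LIF acts through the receptor pair Lifr and Il6st and the kinase Jak1 on the transcription factor STAT3, which holds mouse pluripotent cells in self-renewal. Pluripotent cells themselves grow as epithelial colonies held by E-cadherin, with the transcription factors Oct4 (Pou5f1), Sox2 and Nanog at the centre of their network. RNA from iPSC lifted off a layer can hold both cell types. In such bulk samples, fewer cells of a type and less RNA per cell cannot be told apart.

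Levels below are log2 of background-corrected, quantile-normalized bead signal, and a difference is the on-feeder mean minus the feeder mean on that scale. Each gene is represented by its brightest probe, and of 2425 called genes with several detected probes, 936 had another probe that was not called in the same direction. The p-values are from limma with Benjamini-Hochberg adjustment over all 10058 genes tested, and a gene was called at an adjusted p under 0.05. The feeder arrays detected 13581 and 14574 probes, and the on-feeder arrays between 17630 and 19043. Over all genes tested, the arrays correlated at 0.995 between the feeder arrays, at 0.9919 to 0.9948 among the on-feeder arrays, and at 0.7915 to 0.8077 between the groups (Pearson, across genes, which are not independent replicates). Feeder array 2 stood apart at iPSC genes. Of 146 genes at least 16-fold higher on feeder cells, 13 were above array 1 by more than 1 log2 unit on array 2 and 0 were below it by as much, and 28 were detected on array 2 against 13 on array 1. The source of this signal was not tested, and where a feeder array moved a named difference by more than 1.5-fold the value without it is given. Where a gene was undetected on array 1, what remains without array 2 is a bound, and the on-feeder mean is set against the dimmest detected signal of array 1 (5.38).

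Of the 10 feeder markers, 7 were tested, and their mean level was 9.74 and 9.92 on the feeder arrays and between 7.67 and 7.76 on the on-feeder arrays. Col1a2, Col3a1 and Postn, which fibroblasts are known to express, were detected on no array of either group, so the fibroblast label rests on the others. They were Thy1, Col1a1, Lox and Twist1, and also Dcn, Prrx1 and Pdgfrb. Dcn and Prrx1 fell by 0.36 and 0.75 only, and Prrx1 read 7.82 in feeder cells and 7.27 in feeder-free iPSC. Pdgfrb was dim in feeder cells at 6.02. Of the 10 iPSC markers, 8 were tested, at a mean of 4.71 and 5.24 on the feeder arrays and between 9.34 and 9.49 on the on-feeder arrays. Epcam, which pluripotent cells are known to express, was detected on no array, and Zfp42 was dim on feeder cells at 5.31, a rise of 0.68. Of 10 markers of blood, endothelium, endoderm and neural cells, Ptprc, Adgre1, Lyz2, Afp, Pax6 and Sox1 were detected on no array of either group, while Pecam1, Cdh5, Gata6 and Sox17 were detected on 3 of 3 on-feeder arrays and on 0 of 2 feeder arrays.

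The iPSC on feeder cells and the feeder cells differed at most genes. Of 10058 genes tested, 8130 (80.8%) passed the threshold: 3936 (39.1%) were higher on feeder cells and 4194 (41.7%) were lower. Both shares are the background for the counts of each gene list below. At least 2-fold differences were found for 2082 genes (20.7%) in the higher and 1961 (19.5%) in the lower direction, and at least 16-fold differences for 146 and 15. All on-feeder arrays lay beyond both feeder arrays at 4257 genes (42.3%) in the higher and 4482 (44.6%) in the lower direction. Cyclic loess left the split near this, with 47.5% of the calls higher against 48.4%. With arrays scaled to a common median, 4097 genes were higher and 2257 lower, so that 64.5% of the calls were higher, and the median over all genes moved from -0.05 to 0.27. At the other end, 1484 genes (14.8% of those tested, and 20.4% of the 7277 detected on all 5 arrays) had a 95% interval within 1.5-fold of the feeder level, among them the glycolytic enzyme Gapdh at 14.81 and 14.76 in feeder cells and 14.79, 14.84 and 14.76 on feeder cells. The tubulin Tuba1b, the elongation factor subunit Eef1g, the ATP synthase subunit Atp5b and the ribosomal protein gene Rpl13 were others of the brightest near the feeder level, with differences of 0.17, -0.08, -0.11 and -0.10.

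By fitted difference, with undetected probes at their measured signal, the largest rises were Dnmt3l, Chchd10, Snrpn, Snurf, Tex19.1, Dppa4, Fbxo15, Fabp3, Pou5f1, Slc2a3, Lefty2 and Lefty1. Chchd10, a mitochondrial protein, read 4.49 and 6.10 in feeder cells and 13.19, 13.26 and 13.35 on feeder cells, a rise of 7.98 (SE 0.32), or 7.09 without array 1 and at least 237-fold against array 1 alone. Fabp3, a fatty acid carrier, read 4.81 and 7.403 and 13.04, 13.07 and 13.14, a rise of 6.98 (SE 0.49), or 5.62 without array 1 and at least 209-fold against array 1 alone. Dppa4 and Fbxo15, both known as pluripotency-associated genes, rose by 7.24 (SE 0.27) and 7.01 (SE 0.28). The rise of Dppa4 was 6.52 without array 1 and at least 124-fold against array 1 alone, and that of Fbxo15 was 6.23 without array 1 and at least 128-fold against array 1 alone. Feeder array 1 detected none of Chchd10, Fabp3, Dppa4, Fbxo15 and Snurf, and array 2 detected all of them. Snurf shares its transcript with Snrpn and rose by 7.55 (SE 0.21) on its brightest probe, at least 188.5-fold against array 1 alone. Its other detected probes differed by 6.88 and -1.18. Among genes detected on all 5 arrays, the uridine phosphorylase Upp1 rose from 6.95 and 7.57 to 12.91, 12.91 and 12.93, and Crip2, Rbpms2 and Rbpms rose by 4.43, 4.30 and 4.22. The RNA-binding proteins Rbpms and Rbpms2 are close relatives.

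The largest falls were smaller. They were Ptn, Osr2, Polr1b, Hoxa5, Gamt, Cxcl12, Cdkn2c, Lox, Sspn, Capn6, Adamts5 and Cdc42ep2. Gamt, which makes creatine, fell from 10.85 and 10.90 to 6.58, 6.69 and 6.42. Sspn, of the dystrophin complex, fell by 4.21, the calpain relative Capn6 fell by 4.20, and Cdc42ep2 fell by 4.19. On the arrays of feeder-free iPSC, Sspn and Capn6 were detected on 0 of 3. Sspn was detected on 2 of 3 on-feeder arrays.

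**Figure D1:**
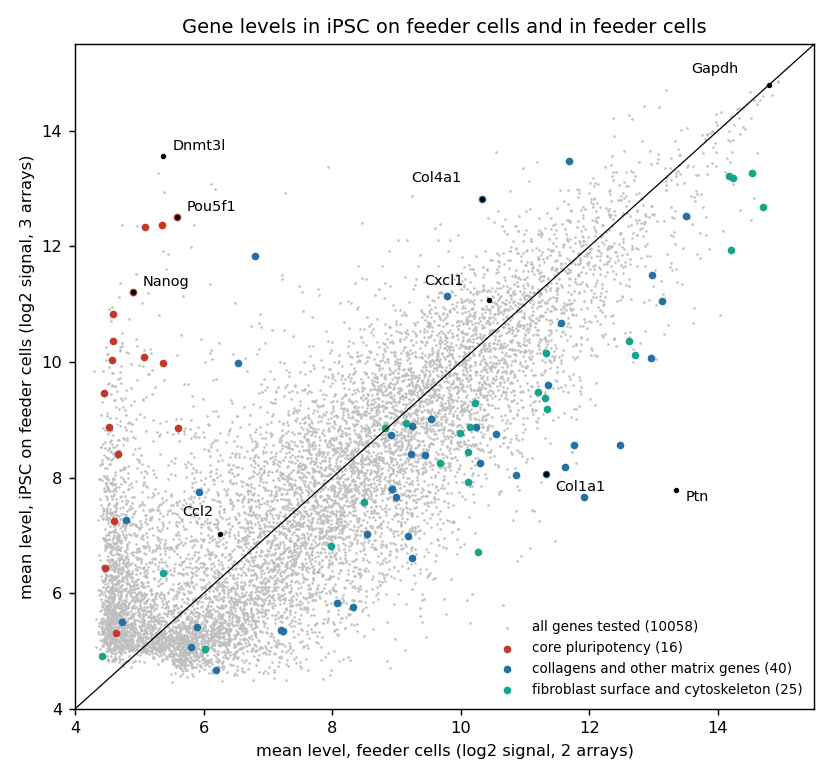
Mean level of each of 10058 genes on the 2 feeder arrays (x axis, log2 signal) and on the 3 on-feeder arrays (y axis, log2 signal), with the line of equal levels. The 16 core pluripotency genes lie above the line, most matrix and fibroblast surface genes lie below it, and Ccl2 and Cxcl1 lie just above it.

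The pluripotency network was higher on feeder cells. Of the core pluripotency list, 16 of 16 tested genes were higher, with a median difference of 5.003 against -0.05 over all genes, and 11 of the 16 were detected on neither feeder array. Pou5f1 stood at 4.86 and 6.31 on the feeder arrays and at 12.43, 12.71 and 12.37 on the on-feeder arrays. It was detected on feeder array 2 and not on array 1, and both lay far below every on-feeder array. The difference was 6.92 (SE 0.30), with an adjusted p of 6.06e-10 by limma. It was 6.11 without array 1 and at least 139.9-fold against array 1 alone.

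Sox2, the partner of Oct4 on DNA, read 5.17 and 5.57 in feeder cells and 9.79, 10.32 and 9.85 on feeder cells, a rise of 4.62 (SE 0.18). Sox2 was undetected on feeder array 1 and at least 24.4-fold higher against that array alone. Nanog, which stabilizes the self-renewing state, was detected on 0 of 2 feeder arrays (4.72 and 5.08) and stood at 11.14, 10.94 and 11.56 on feeder cells, at least 53.7-fold higher. A group not above background has only a bound, so such folds set the on-feeder mean against the dimmest detected signal. Utf1, a chromatin factor of pluripotent cells, was likewise undetected in feeder cells and at least 29.7-fold higher. On feeder array 1 these 4 genes read between 4.52 for Utf1 and 5.17 for Sox2.

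Naive-state factors behaved less uniformly: 10 of 14 were higher, 0 were lower, and the median difference was 1.53. Tfcp2l1, a target of LIF signalling, rose from no detection to 10.20, 10.10 and 10.18, at least 25.9-fold. Esrrb, an orphan nuclear receptor of the naive network, rose by 6.42 (SE 0.34) on its brightest probe (5.47 without array 1 and at least 89.8-fold against array 1 alone), while a second, dim probe fell by 0.59. Gbx2 stood at 5.84 and 6.34 in feeder cells and 11.39, 11.21 and 11.44 on feeder cells. The 4 that did not pass included Klf4, Tbx3 and Myc.

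Klf4 and Myc, which are widely used as reprogramming factors and are also active in fibroblasts, showed no called difference. Klf4 read 7.88 and 8.06 on the feeder arrays and 7.98, 8.34 and 7.87 on the on-feeder arrays, which overlapped, with a difference of 0.09 (SE 0.16), a 95% interval from -0.27 to 0.44 and an adjusted p of 0.62 by limma. The feeder-free arrays read 8.74, 9.08 and 9.20, above all 5. The 3 detected Klf4 probes did not give 1 answer: the second probe differed by -0.003, and the third, dimmer one read 5.43 and 4.44 in feeder cells and 7.14, 6.90 and 7.11 on feeder cells, a rise of 2.11. Myc read 6.85 and 7.29 in feeder cells and 7.02, 7.71 and 7.16 on feeder cells, again overlapping, with a difference of 0.22 (SE 0.20), a 95% interval from -0.22 to 0.66 and an adjusted p of 0.317 by limma. These calls changed with median scaling: with arrays scaled to a common median, which raised the median of all genes to 0.27, Klf4 was higher by 0.56, Myc by 0.86 and Tbx3 by 0.61, and all passed. As the mean over its probes Klf4 passed as well, at 0.73.

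**Figure D2:**
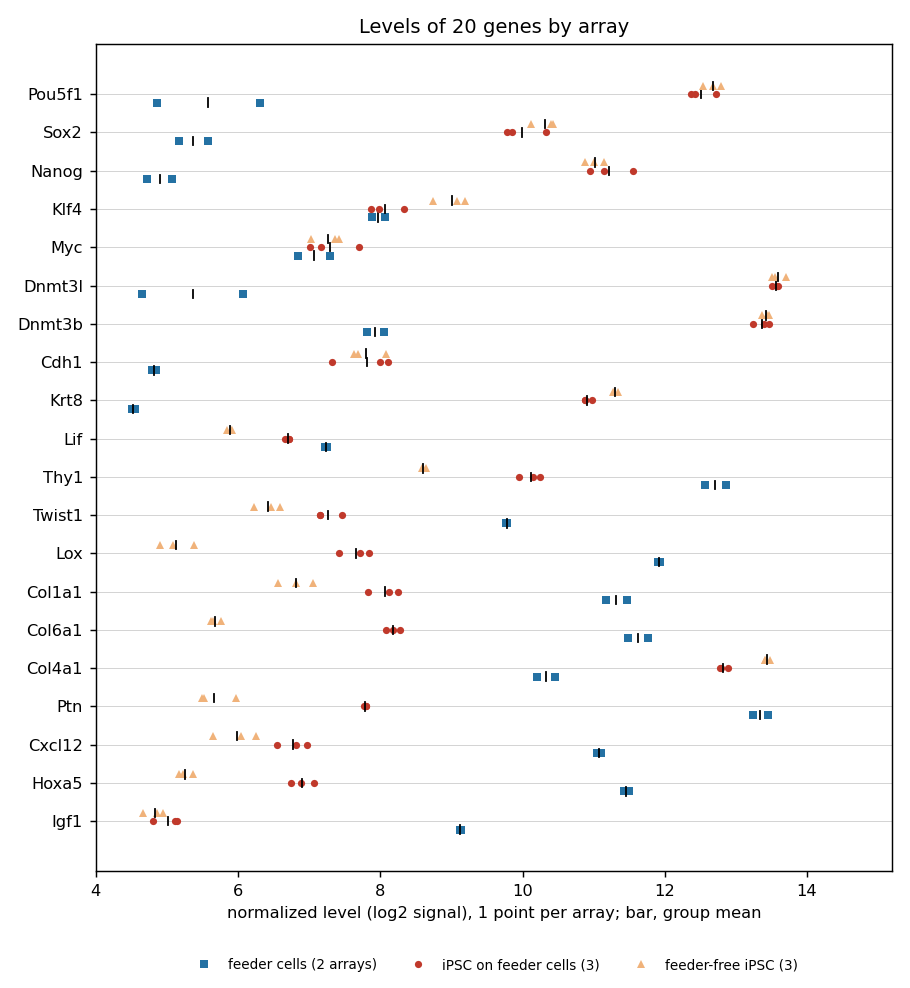
Level of 20 genes on each array (log2 signal, 1 point per array, bar at the group mean) in feeder cells, iPSC on feeder cells and feeder-free iPSC. Pou5f1, Sox2 and Nanog separate fully from feeder cells, Klf4 and Myc overlap them, and Thy1, Twist1, Lox, Col1a1, Col6a1, Ptn, Cxcl12 and Hoxa5 on feeder cells lie between feeder cells and feeder-free iPSC.

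Genes of DNA methylation and of the germline were among the largest rises. All 6 tested members of the DNA methylation list were higher. Dnmt3l, the cofactor of the de novo methyltransferases, went from 4.65 and 6.08 to 13.51, 13.58 and 13.59, a difference of 8.20 (SE 0.29) that was 7.41 without array 1 and at least 291-fold against array 1 alone. Its catalytic partner Dnmt3b was detected on all 5 arrays and went from 7.81 and 8.05 to 13.23, 13.39 and 13.47, or 5.43 (SE 0.12). Dnmt1, the maintenance methyltransferase, and Uhrf1, which recruits it to replicating DNA, were already detected in feeder cells and rose by 1.26 and 1.32. Of 10 tested germline genes, 8 were higher and 1 was lower (median 2.36). Tex19.1, a guard against transposons in germ cells, was undetected in feeder cells and stood at 12.36, 12.39 and 12.30 on feeder cells, at least 118-fold higher. Tdrd12 and Piwil2, members of the piRNA pathway, and Stag3, a meiotic cohesin, were at least 10.2-fold, 6.404-fold and 5.93-fold higher, all 3 undetected in feeder cells.

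Imprinted genes split. Of 21 tested, 15 were higher, 3 were lower and the median was 1.30. Snrpn, from the paternally expressed cluster on chromosome 7, was undetected in feeder cells at 4.62 and 4.83 and read 12.22, 12.38 and 12.51 on feeder cells, at least 119.7-fold higher. The maternally expressed growth inhibitors Cdkn1c and Phlda2 were at least 46.9-fold and 51.8-fold higher, both undetected in feeder cells. Igf2, a fetal growth factor, stood at 5.69 and 7.30 on the feeder arrays, which were far apart, and at 11.06, 10.98 and 11.01 on feeder cells, a rise of 4.53 (SE 0.32) or 5.27 without feeder array 2 and 3.65 without array 1. The falls were Mest, Dlk1 and Grb10. Dlk1, a Notch-related inhibitor of differentiation, fell from 13.08 and 13.19 to 11.40, 10.96 and 11.16 and Mest from 11.57 and 11.67 to 9.64, 9.69 and 9.50. Dlk1 on feeder cells lay above feeder-free iPSC by 1.59 (SE 0.12), whereas Mest lay at the feeder-free level (a difference of -0.04 (SE 0.10), adjusted p 0.812 by limma).

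Epithelial genes were higher on feeder cells: 17 of 19 tested junction and keratin genes passed in that direction and 0 in the other, with a median of 2.45. Of the 19, 14 were detected on neither feeder array. E-cadherin, Cdh1, read 4.79 and 4.84 in feeder cells, not well above background, and 7.32, 8.11 and 8.00 on feeder cells, at least 5.07-fold higher. The keratin pair Krt8 and Krt18 was at least 43.5-fold and 17.2-fold higher, and the epithelial splicing regulator Esrp1 at least 12.2-fold. Plakoglobin, Jup, which fibroblasts also use, did not pass: it read 9.81 and 9.90 in feeder cells and 9.68, 9.80 and 9.39 on feeder cells, although it passed at -0.48 with cyclic loess and at -0.49 as the mean over its probes.

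Genes usually read as marks of early lineages were also above feeder cells. Of 13 primitive endoderm genes tested, 11 were higher and 2 lower (median 2.71). The transcription factors Gata6 and Sox17 were undetected in feeder cells and read 9.49, 9.40 and 9.85 and 8.82, 8.72 and 9.03 on feeder cells, at least 17.3-fold and 10.5-fold higher. Apoe, a lipid carrier, was at least 22.3-fold higher. The epiblast and neural factors Otx2 and Pou3f1 and the trophoblast and germ cell factor Tfap2c were at least 20.7-fold, 37.7-fold and 25.4-fold higher. Feeder-free iPSC carried these too, at 9.66, 9.95 and 9.80 for Gata6 and 10.02, 10.24 and 10.10 for Otx2. Pecam1, known from endothelium and from mouse pluripotent cells alike, was at least 14.6-fold higher, while the endothelial cadherin Cdh5, undetected in feeder cells, read 5.32, 5.44 and 5.52 on feeder cells, too dim for a bound, and Cd34, a surface marker of blood progenitors and fibroblasts, fell by 2.48.

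**Figure D3:**
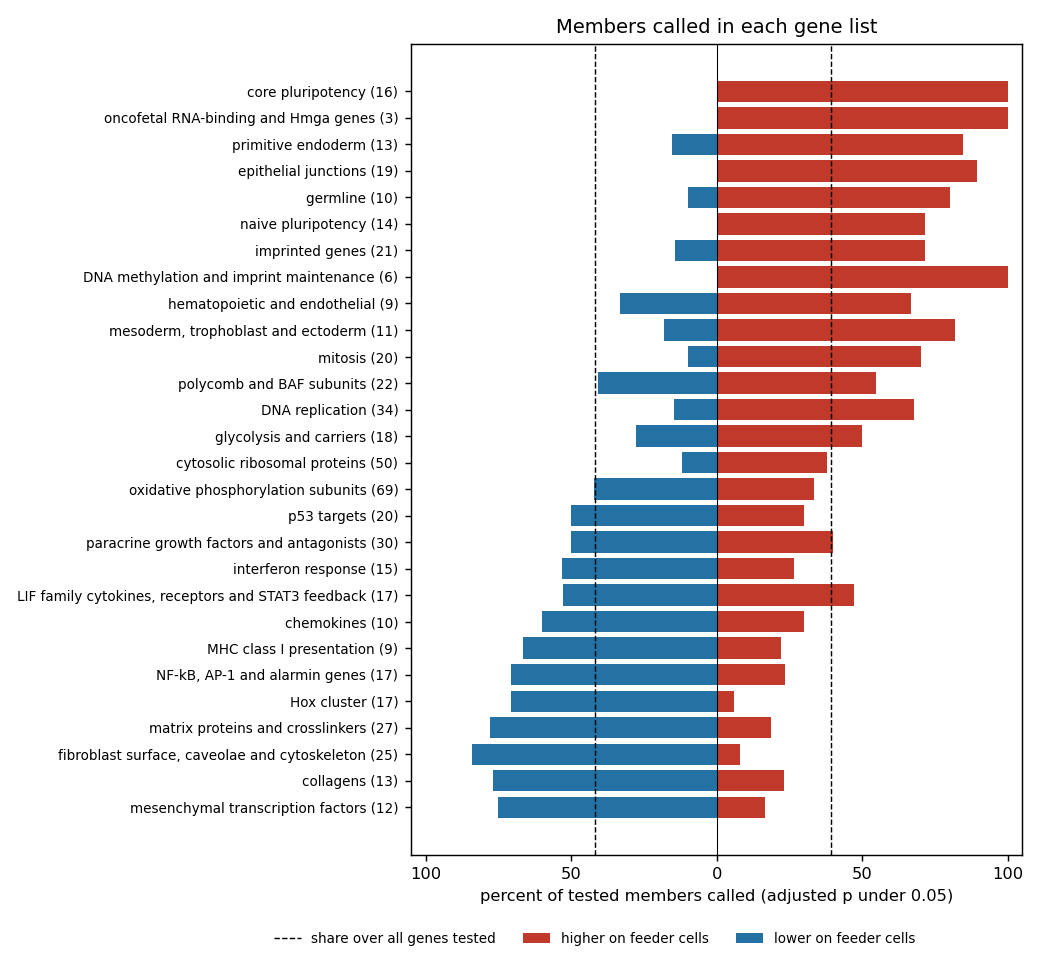
For each of 28 gene lists (tested members in brackets), the percent of members higher (right) and lower (left) on feeder cells than in feeder cells, ordered by median difference; dashed lines give the share over all 10058 genes, 39.1% higher and 41.7% lower. Core pluripotency stands at the top with 100% higher, and mesenchymal transcription factors at the bottom with 75% lower.

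On the falling side, the fibroblast program was lower but not gone. Of 13 collagen genes tested, 10 were lower and 3 were higher, with a median of -1.80. Col1a1, the main chain of fibrillar type I collagen, fell from 11.17 and 11.47 to 8.12, 8.25 and 7.83, a difference of -3.26 (SE 0.17), and still lay 1.25 above feeder-free iPSC. Col6a1, of the microfibrillar type VI collagen, fell from 11.48 and 11.77 to 8.28, 8.17 and 8.07, or 10.9-fold. The 3 higher members belong to basement membrane collagens, which early embryonic cells lay down. Not all such chains rose, as Col4a5, also of type IV, was among the 10 lower. Col4a1 rose by 2.48 (SE 0.11), Col4a2 by 1.80 (SE 0.11) and Col18a1 from 6.57 and 7.03 to 11.72, 11.86 and 11.92, a rise of 5.03 (SE 0.14).

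Of 27 other matrix genes tested, 21 were lower, 5 higher and 1 did not pass (median -1.14). Lox, which crosslinks collagen and elastin, fell from 11.93 and 11.90 to 7.72, 7.42 and 7.84, and its relative Loxl1 from 12.43 and 12.53 to 8.66, 8.58 and 8.45. The membrane collagenase Mmp14 fell by 3.20 and the aggrecan-cleaving protease Adamts5 dropped below detection on all 3 on-feeder arrays, at least 15.3-fold lower. The higher members included fibronectin, Fn1, at 1.36, Loxl2 at 1.84, the matricellular factor Ccn2 at 3.45, and Sparc, which was undetected in feeder cells and at least 3.47-fold higher. Tenascin C, Tnc, read 8.75 and 9.07 in feeder cells and 8.77, 8.71 and 8.72 on feeder cells, a difference of -0.18 (SE 0.13) with a 95% interval from -0.47 to 0.12 and an adjusted p of 0.236 by limma, and lay 2.41 above feeder-free iPSC. Its other detected probes differed by 0.51 and -0.18.

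The fibroblast surface, caveolae and cytoskeleton list had 21 of 25 tested members lower and 2 higher (median -1.26). Thy1, a surface glycoprotein used to sort fibroblasts, fell from 12.56 and 12.85 to 10.24, 10.15 and 9.95, a difference of -2.59 (SE 0.12), against 8.60, 8.64 and 8.58 in feeder-free iPSC. The caveolar coat proteins Cavin2 and Cavin3 fell by 2.25 and 3.56, and the focal adhesion protein Zyx by 2.26. The platelet-derived growth factor receptor Pdgfra did not pass on its brightest probe, 8.74 and 8.91 against 8.85, 8.63 and 9.08, while its other detected probe fell by 1.01.

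Transcription factors of mesenchyme fell with them: 9 of 12 tested were lower and 2 higher (median -1.98). Osr2 fell from 10.55 and 10.75 to 5.85, 5.72 and 5.82, or 28.9-fold, and its relative Osr1 from 8.27 and 8.21 to 4.89, 4.75 and 5.04, where it was detected on 1 of 3 arrays. The bHLH factor Twist1 fell by 2.52 and its relative Twist2 fell by 3.54. Tead1, a partner of the Hippo pathway, was higher by 0.85. Of 17 Hox genes tested, 12 were lower, 1 was higher and 4 did not pass (median -1.05). Hoxa5 fell from 11.43 and 11.49 to 7.07, 6.74 and 6.88, Hoxa7 fell by 3.75 and Hoxc6 fell by 3.21, and Hoxa2 was detected on no on-feeder array, at least 7.43-fold lower. The higher member, Hoxb13, was dim at 5.18, 5.25 and 5.10.

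Secreted signals went both ways, as did all genes tested, at 39.1% higher and 41.7% lower. In the list of LIF family cytokines, receptors and STAT3 feedback genes, 8 of 17 (47.1%) were higher and 9 (52.9%) lower. The list median of -0.54 became 0.11 with arrays scaled to a common median. The ligand Lif itself read 7.25 and 7.23 in feeder cells, 6.66, 6.72 and 6.72 on feeder cells and 5.92, 5.90 and 5.85 in feeder-free iPSC, 3 groups that did not overlap. It was lower on feeder cells by 0.54 (SE 0.10, adjusted p 2.69e-04 by limma), and with median scaling the difference was 0.11. Other ligands of the family fell, Ctf1 by 2.37 and Il11 by 1.19, as did the oncostatin M receptor Osmr by 1.72. On the receiving side, Jak1 was undetected in feeder cells and read 7.92, 8.04 and 7.79 on feeder cells, at least 5.47-fold higher, and Il6st was at least 1.16-fold higher. The feedback inhibitors induced by STAT signalling, Socs2 and Socs3, rose from 6.67 and 6.79 to 10.57, 10.57 and 10.72 and from 7.96 and 7.99 to 10.17, 10.01 and 10.44.

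Of 30 tested paracrine growth factors and antagonists, 12 were higher and 15 lower, a share near the background in both directions, and the median of -0.20 turned to 0.34 with median scaling. The related heparin-binding cytokines pleiotrophin and midkine went opposite ways. Ptn, the former, had the largest fall of any gene, from 13.23 and 13.45 to 7.80, 7.77 and 7.80, a difference of -5.55 (SE 0.14), while Mdk, undetected in feeder cells, read 10.18, 10.39 and 10.49, at least 29.6-fold higher. Igf1 fell from 9.12 and 9.13 to 5.11, 4.7999 and 5.15 and Tgfb3 fell by 3.61. Among insulin-like growth factor binding proteins, Igfbp2 rose by 6.18 (SE 0.22), Igfbp6 fell by 3.72, and Igfbp7 did not pass at 7.41 and 7.39 against 7.78, 7.44 and 8.00. Igfbp2 was undetected on feeder array 1 and at least 74.7-fold higher against that array alone. The Nodal antagonists Lefty1 and Lefty2 were undetected in feeder cells and at least 66.8-fold and 59.3-fold higher.

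In each of the lists of immune genes falls outnumbered rises, where 41.7% of all genes were lower and 39.1% higher. Of 9 MHC class I presentation genes tested, 6 were lower and 2 higher (median -0.99). B2m, the light chain of class I molecules, read 13.00 and 13.02 in feeder cells, 11.53, 11.52 and 11.72 on feeder cells and 10.23, 10.57 and 10.30 in feeder-free iPSC. The heavy chain gene H2-D1 fell by 1.23 and the loading chaperone Tapbp by 1.62, while the immunoproteasome subunit Psmb8 was at least 6.32-fold higher. Of 15 interferon-response genes, 8 (53.3%) were lower and 4 higher, with Ifit2 lower by 2.08 and Bst2, a virus tether, higher by 2.90. Of 17 NF-kB, AP-1 and alarmin genes, 12 were lower and 4 higher (median -1.02). The AP-1 subunits Fosl1, Fosl2 and Jun fell by 2.80, 2.84 and 2.44. The pentraxin Ptx3 fell by 4.01 and was detected on 1 of 3 on-feeder arrays. The other detected probe of Ptx3 fell by 3.21. That probe was the brighter one without feeder array 2, without feeder array 1 or without feeder-free array 2. The difference of Ptx3 was then -3.24, -3.22 or -3.21. The adhesion molecule Icam1 was undetected in feeder cells and read 10.13, 10.30 and 10.24 on feeder cells, at least 27.04-fold higher.

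Of 10 chemokines tested, 6 were lower and 3 higher. Cxcl12, a stromal chemokine that holds blood stem cells, fell from 11.05 and 11.11 to 6.96, 6.55 and 6.81, or 19.7-fold. Ccl9, Ccl7 and Ccl5 fell by 1.51, 1.08 and 1.47, and Ccl5 was detected on 1 of 3 on-feeder arrays. Against these, the neutrophil attractant Cxcl1 and the monocyte attractant Ccl2 were above the feeder cells, and Cxcl16 rose by 1.63, although its other detected probe differed by 0.24.

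Genes of the cell cycle were higher by smaller amounts. Of 34 DNA replication genes tested, 23 were higher and 5 lower (median 0.48), and of 20 mitosis genes 14 were higher and 2 lower (median 0.58). The ribonucleotide reductase subunit Rrm1 rose from 5.96 and 6.24 to 10.23, 10.15 and 10.11, and the spindle genes Tpx2 and Bub1b rose by 2.57 and 2.48. Kif2c, a microtubule depolymerase, was undetected in feeder cells and at least 17.7-fold higher. The mitotic kinases Cdk1 and Plk1 did not pass, at 11.55 and 11.40 against 11.62, 11.79 and 11.84 for Cdk1 and 11.41 and 11.44 against 11.58, 11.69 and 11.55 for Plk1. Cdk1 passed under 6 alternatives, at 0.27 to 0.34, and Plk1 under 1, the trend and robust settings of eBayes (adjusted p 0.0497 by limma). Fen1 and Tyms, of lagging-strand processing and thymidylate synthesis, were lower by 0.95 and 0.65. Among cell cycle inhibitors, the p53 target Cdkn1a fell from 12.39 and 12.33 to 10.59, 10.996 and 10.45, and Cdkn2c from 10.93 and 10.95 to 6.74, 6.80 and 6.42, or 19.5-fold. Of 20 p53 targets, 6 were higher and 10 lower, and the median of -0.16 became 0.23 with median scaling.

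Metabolic and chromatin genes went both ways, as did all genes tested, at 39.1% higher and 41.7% lower. Of 18 glycolysis genes, 9 were higher and 5 lower. The glucose carrier Slc2a3 read 4.73 and 7.63 on the feeder arrays and 12.99, 12.91 and 13.09 on feeder cells, a rise of 6.82 (SE 0.55) that was 5.30 without array 1 and at least 197-fold against array 1 alone. Hexokinase Hk2 rose by 2.72 (SE 0.11) and aldolase Aldoc by 2.44 (SE 0.12), while enolase Eno2 fell by 1.72. Of 69 oxidative phosphorylation subunits, 23 (33.3%) were higher and 29 (42.0%) lower (median -0.14), shares near those of all genes. Cox7a1 was at least 10.6-fold higher. Of 22 polycomb and BAF subunits, 12 (54.5%) were higher and 9 (40.9%) lower. Of polycomb complex 1, the paralogs Cbx7 and Cbx6 went opposite ways, as Cbx7 rose by 3.70 and Cbx6 fell by 2.17. Phc1 rose by 3.08 and Bmi1 fell by 2.83. Eed, of polycomb complex 2, rose by 2.61. Of 50 cytosolic ribosomal protein genes, 25 did not pass, and 27 had an interval within 1.5-fold of the feeder level, against 14.8% of all genes. Rpl30 rose by 3.62 all the same and Rpl21 fell by 1.70.

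Genes detected in feeder cells and not in feeder-free iPSC were followed separately. Among the genes tested, 264 were detected on both feeder arrays and on 0 of 3 feeder-free arrays. Choosing them by detection in feeder cells favours a lower value elsewhere, so they are described without a test as a group. On feeder cells 262 were lower, 1 was higher and 1 did not pass. The median difference was -1.52, and the 3 on-feeder arrays gave -1.54, -1.56 and -1.50 each. Of the 264, 68 were detected on 3 of 3 on-feeder arrays, 84 on 1 or 2, and 112 on 0. The 38 with a feeder mean above 8, where the floor of the scale matters least, ranged from -4.65 to -1.33 with a median of -2.82.

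The lowest of them was Polr1b, a subunit of RNA polymerase I, at 10.14 and 10.13 in feeder cells and 5.53, 5.57 and 5.36 on feeder cells. Cd34 read 9.26 and 9.18 and 6.74, 6.51 and 6.98, and Ccl9 read 8.57 and 8.21 and 6.84, 6.85 and 6.94. The 1 higher gene was Ccl2, at 6.55 and 5.96 in feeder cells, 6.90, 7.06 and 7.13 on feeder cells and 4.62, 4.83 and 4.69 in feeder-free iPSC. The 1 that did not pass was Gsto2, a glutathione transferase, at 5.45 and 5.90 and 5.96, 5.82 and 6.22, and it passed at 0.58 without feeder array 2 and at 0.42 without on-feeder array 2. These 2 were singled out after their values were seen.

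**Figure D4:**
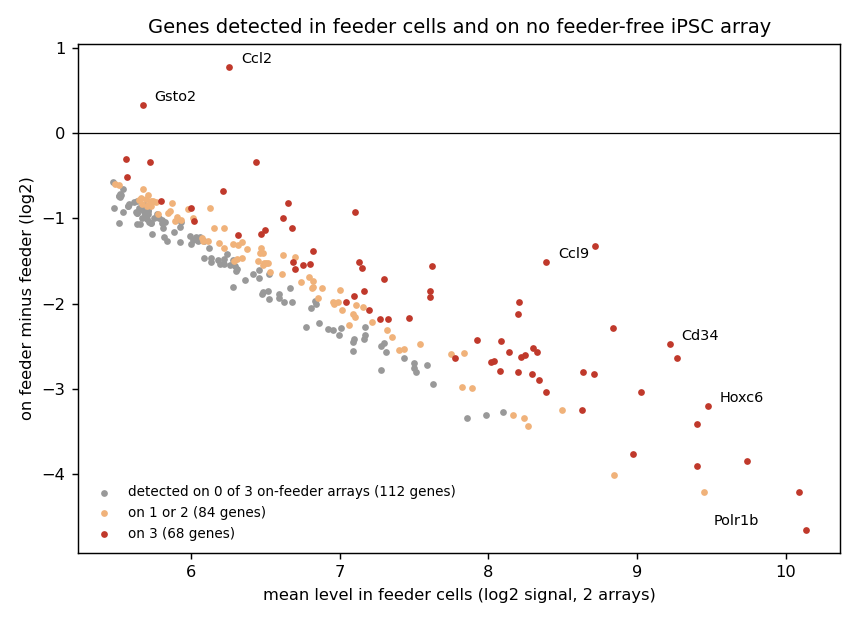
For the 264 genes detected on both feeder arrays and on no feeder-free iPSC array, the on-feeder minus feeder difference (y axis, log2) against the mean feeder level (x axis, log2 signal), coloured by the number of on-feeder arrays that detected the gene. The 38 genes above a feeder level of 8 lie between -4.65 and -1.33, and Ccl2 and Gsto2 lie above the line of no difference.

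In the opposite set, 1703 genes were detected on 3 of 3 on-feeder arrays and on neither feeder array, and 1526 of them were also detected on 3 of 3 feeder-free arrays. Of the 1703, 111 were at least 10-fold higher by their bound. Only 19 were detected on no feeder-free array, led by Mmp13, Serpinb2, Selp and Ptpn22. These 19 passed the detection filter through the on-feeder arrays alone, which favours a higher value there. The named ones are also counted among the genes above both groups, below.

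A gene whose level on feeder cells is a blend of feeder and feeder-free levels lies between them. Above both groups lay 180 genes (1.79% of those tested), called in each comparison, which share the on-feeder arrays and so are not independent. Below both lay 216 (2.15%). Mmp13, interstitial collagenase, read 4.82 and 4.83 in feeder cells and 4.82, 4.74 and 4.81 in feeder-free iPSC, detected on none of these 5 arrays, and 6.62, 6.24 and 6.76 on feeder cells. It was at least 2.11-fold higher than in feeder cells. Its p-value is not given, since it was kept for testing through the on-feeder arrays alone. Mmp10, stromelysin 2, read 5.96 and 5.89, 6.02, 5.93 and 5.96 and 7.35, 7.14 and 7.41 in the same order, a rise of 1.38 (SE 0.11) over feeder cells and 1.33 (SE 0.10) over feeder-free iPSC.

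Serpinb2, an inhibitor of plasminogen activators, and Selp, the adhesion receptor P-selectin, were undetected on the feeder and feeder-free arrays. They were dim on feeder cells, at 5.99, 6.36 and 5.96 and at 5.46, 6.01 and 5.82. Their bounds over feeder cells were small, at least 1.56-fold for Serpinb2 and 1.23-fold for Selp. The platelet chemokine Ppbp read 5.84 and 5.52 in feeder cells, 7.12, 6.96 and 7.42 on feeder cells and 4.801, 4.90 and 4.96 in feeder-free iPSC. Its fitted rise over feeder cells was 1.49 (SE 0.15), with feeder array 2, where it was undetected, at its measured signal. Its p-value is not given, since the feeder arrays did not carry it past the detection filter. Cxcl1 read 10.64 and 10.24, 11.10, 11.01 and 11.10 and 6.23, 5.87 and 5.93 in that order, a rise of 0.64 (SE 0.14) over feeder cells with an adjusted p of 0.0012 by limma and of 5.06 over feeder-free iPSC. With cyclic loess normalization the rise of Cxcl1 over feeder cells was 0.22 and missed the threshold at an adjusted p of 0.165 by limma. Ccl2 rose over feeder cells by 0.77 (SE 0.16), adjusted p 6.20e-04 by limma, and by 0.47 without feeder array 2. Il33, an alarmin, read 5.59 and 5.99 and 6.38, 6.53 and 6.66 against 5.90, 5.50 and 5.63 in feeder-free iPSC. These genes were listed because they lay above both groups. That the 3 on-feeder arrays lay above all 5 other arrays on them largely follows from this choice.

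**Figure D5:**
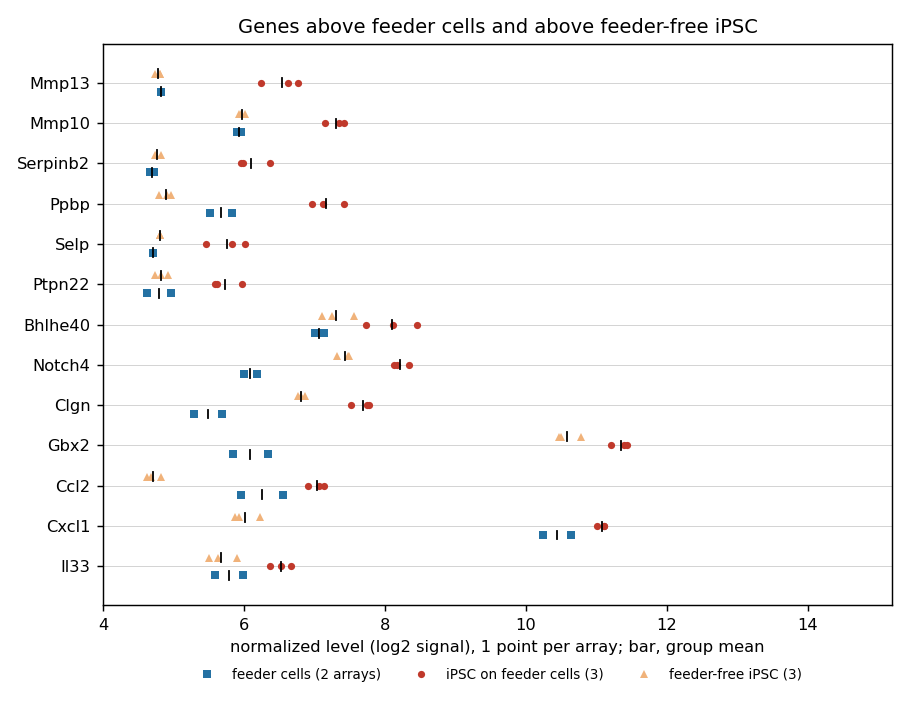
Level of 13 genes on each array (log2 signal, 1 point per array, bar at the group mean) in feeder cells, iPSC on feeder cells and feeder-free iPSC. For each gene the 3 on-feeder arrays lie to the right of the 2 feeder and the 3 feeder-free arrays, by a wide gap for Mmp13, Mmp10 and Ppbp and a narrow one over feeder cells for Ccl2 and Cxcl1.

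The promoters of the 12 genes above both groups that ranked highest by the smaller of their 2 differences were searched, since several encode proteases, a protease inhibitor or proteins that recruit leukocytes, as was seen from their values. The sequences are RefSeq's 250 bases before the start of the gene (build GRCm38.p6, plus strand, 5′ to 3′), and 9 of the 12 matched a window. Capitals mark matches to TGANTCA, a loose form of the AP-1 motif with any base at N, the same on both strands. They also mark the NF-kB motif, GGGA and CC with any 4 bases between, searched on both strands. Fos and Jun dimers are known to bind TGACTCA and TGAGTCA, the letters found in Mmp13 and Mmp10. Serpinb2 and Ppbp held TGAATCA and Selp held TGATTCA, which differ from these at the central base. Windows are shown for the 5 genes with an AP-1 match and for Cxcl1, which is not among the 12 and was added after its values were seen.
Mmp13, chr9:7272264-7272513: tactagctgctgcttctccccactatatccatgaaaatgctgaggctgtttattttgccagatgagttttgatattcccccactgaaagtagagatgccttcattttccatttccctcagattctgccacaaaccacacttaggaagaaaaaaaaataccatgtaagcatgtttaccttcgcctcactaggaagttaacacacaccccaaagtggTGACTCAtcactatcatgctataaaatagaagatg
Mmp10, chr9:7502092-7502341: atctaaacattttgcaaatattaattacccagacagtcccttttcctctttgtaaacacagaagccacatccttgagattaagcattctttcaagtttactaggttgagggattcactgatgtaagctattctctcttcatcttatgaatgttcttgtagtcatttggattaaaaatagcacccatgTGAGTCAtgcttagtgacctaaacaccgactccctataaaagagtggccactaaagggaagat
Serpinb2, chr1:107511173-107511422: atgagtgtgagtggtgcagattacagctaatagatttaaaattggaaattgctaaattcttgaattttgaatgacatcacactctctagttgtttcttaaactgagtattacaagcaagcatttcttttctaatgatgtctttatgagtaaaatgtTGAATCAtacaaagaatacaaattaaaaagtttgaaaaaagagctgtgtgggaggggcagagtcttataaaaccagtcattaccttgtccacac
Ppbp, chr5:90768268-90768517: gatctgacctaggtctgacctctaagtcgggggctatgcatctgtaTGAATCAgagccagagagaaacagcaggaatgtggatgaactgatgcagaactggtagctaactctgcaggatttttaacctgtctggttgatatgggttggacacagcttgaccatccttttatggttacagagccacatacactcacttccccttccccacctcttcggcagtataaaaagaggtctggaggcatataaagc
Selp, chr1:164115014-164115263: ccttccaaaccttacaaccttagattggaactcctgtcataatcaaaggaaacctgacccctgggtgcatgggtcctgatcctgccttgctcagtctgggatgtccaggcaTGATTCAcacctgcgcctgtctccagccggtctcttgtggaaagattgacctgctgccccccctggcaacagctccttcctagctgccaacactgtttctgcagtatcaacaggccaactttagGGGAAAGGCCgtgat
Cxcl1, chr5:90890995-90891244: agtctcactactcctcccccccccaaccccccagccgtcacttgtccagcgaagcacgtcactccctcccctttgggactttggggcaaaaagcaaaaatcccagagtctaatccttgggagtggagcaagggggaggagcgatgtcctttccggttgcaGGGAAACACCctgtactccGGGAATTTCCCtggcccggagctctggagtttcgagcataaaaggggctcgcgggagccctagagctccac

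Counted from the start of the gene, the AP-1 match began at -35 in Mmp13, -63 in Mmp10, -94 in Serpinb2 (or -181 from its second RefSeq start), -204 in Ppbp and -139 in Selp. Cxcl1 held NF-kB matches at -90, -71 and -70, the last on the minus strand and overlapping the one before it, and Selp held one at -15. The AP-1 letters were found in 5 of the 9 windows, in 11 of the 137 windows (8.03%) found for the 180 genes above both groups, and in 353 of the 8178 windows (4.32%) found for the genes tested. Over all 27025 RefSeq windows the share was 6.87%. The NF-kB letters were found in 3 of the 9 (those of Ptpn22, Selp and Wwtr1), in 24.1% of the 137 and in 22.2% of the 8178. A further motif searched, the TATA letters TATAAA on either strand, was found in 4 of the 9 (Mmp10, Mmp13, Ppbp and Serpinb2). It was found in 9.49% of the 137 and in 7.21% of the 8178. The 9 windows belong to genes ranked by these same values. Of those with the AP-1 letters, Mmp13, Serpinb2 and Selp were kept for testing through the on-feeder arrays alone. Whether the shares differ was not tested. A match describes letters in a window and is not a binding site.

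The other top-ranked genes above both groups were Ptpn22, a phosphatase of immune cells, the circadian repressor Bhlhe40, the receptor Notch4, the chaperone Clgn, Gbx2 and Wwtr1. Bhlhe40 read 7.14 and 7.00 in feeder cells, 8.12, 7.73 and 8.46 on feeder cells and 7.56, 7.25 and 7.11 in feeder-free iPSC. Notch4 rose over feeder cells by 2.12 (SE 0.12), but its other detected probe differed by 0.03. Wwtr1, a coactivator of the Hippo pathway, rose by 1.53 (SE 0.18) on its brightest probe, and its other probes differed by 0.27 and -0.83. Without on-feeder array 1 or 3 a different probe was the brightest, and Wwtr1 differed by -0.70 or -0.61.

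Other genes lay below both groups. The activin antagonist Fst read 9.75 and 9.62 in feeder cells, 8.44, 8.95 and 8.50 on feeder cells and 9.31, 9.53 and 9.74 in feeder-free iPSC, a fall of 1.05 against feeder cells. Scaf1, a splicing-related protein, read 9.68 and 9.91, 8.99, 8.76 and 8.40 and 9.67, 9.88 and 9.81 in the same order. Ptms, parathymosin, fell from 11.002 and 11.03 to 8.43, 8.38 and 7.99, and the mitochondrial glutamate carrier Slc25a22 from 8.69 and 8.78 to 7.08, 7.18 and 7.23, against 7.94, 7.94 and 7.92 in feeder-free iPSC. For these 4 genes no on-feeder array reached the level of any feeder or feeder-free array.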

How the data were processed

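Total RNA was hybridized as biotinylated cRNA to BeadChips from Illumina, per the labels' protocols. The authors deposited non-normalized bead intensity per probe, with a detection score per array, a p-value by its header that rose with signal and was read as 1 minus the detection p. The deposited feeder-free columns, the first 2 identical at 100% of probes, were read from the values as mixtures of mean feeder-free and mean feeder intensity (91% and 9%, or 92% and 8%). Each feeder-free array was solved from the deposited 92% and 8% mixtures, and the means of the solved arrays gave those columns back to within 0.0471 signal units. The labels do not say this of the feeder-free columns. The authors' normalized table matched the feeder arrays (correlations of 0.9969 and 0.9973 on the log2 scale) but not the others (-0.0294 to -0.0265) and was not used.

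Background was corrected with limma 3.58.1 (R 4.3.3) by normexp on detection p with an offset of 16, and intensity was quantile-normalized over 8 arrays and taken to log2. A probe was kept where its score passed 0.95 on all arrays of 1 or more groups (18144 probes), with 1 probe per gene, the brightest, named through the platform annotation. Of 46627 probes, 29972 had 1 symbol, 10 several and 16645 none. Of the 10058 genes, 217 were kept through feeder-free iPSC alone. 5 rows without a probe ID, 0.471% to 0.563% of signal, were left out. limma's lmFit and eBayes tested on-feeder minus feeder arrays in a fit of 3 groups (5 residual and 7.03 prior degrees of freedom), with Benjamini-Hochberg adjustment and a threshold of 0.05. The number of arrays limits the precision. The script was tested on simulated data. The members and lists were chosen with earlier results of these data known. Named genes were the largest changes among all genes, per list and beyond both other groups, the brightest near the feeder level or not passing in a list, and a set of identity genes; Ccl7, Cdh5, Gsto2 and Utf1 were named outside this rule after their values were seen. Alternatives were other scalings, background corrections, filters, probe rules, a replicate block and leaving out each array.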

Additional observations from a re-analysis of the deposited data

How the results depend on the processing

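Under the 18 alternatives run, the counts of genes that differed, were higher, or were at least 2-fold higher stayed within 1.5 times the reported ones. The counts of genes above both groups (180) and below both (216) were not rerun under the alternatives. Scaling to a common median gave 2257 genes lower, 1245 at least 2-fold lower and 672 near the feeder level, and no background correction gave 2357 near it. Leaving out 1 array at a time gave 7699 to 8192 genes that differed, 3660 to 3973 higher, 4004 to 4219 lower, 1982 to 2126 and 1877 to 2059 at least 2-fold higher and lower, and 1092 to 1510 near the feeder level. Deviations from the group means correlated at -0.0565 to 0.0565 between feeder and on-feeder arrays. The deviations of 2 feeder arrays mirror each other, so this cannot tell whether the replicate numbers pair the arrays. With the replicate number as a block 7987 genes differed, 3880 higher and 4107 lower. List medians changed sign for the LIF family (0.11 with median scaling, 0.76 with a detection score over 0.99), paracrine factors (0.34, 0.34 and, with cyclic loess, 0.03), p53 targets (0.23 with median scaling) and all genes (0.27 and 0.01). Of named genes, Lif became 0.11 with median scaling, Pdgfra -0.49 with the mean over probes, and Wwtr1 -0.70 and -0.61 without on-feeder array 1 or 3, with a range up to 1.70 when other arrays were left out. The probe that stood for Wwtr1 changed there; for Lif the cause was not tested. Tnc (-0.38 with cyclic loess), Igfbp7 (0.91 with median scaling) Plk1 (trend and robust eBayes) and Cdk1 (0.34 without on-feeder array 1) passed only under some alternatives. Probes not above background in a group give bounds alone.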
